A study of Caenorhabditis elegans with 8 samples.

Results

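Loss of the AMP-activated protein kinase (AMPK) was examined in Caenorhabditis elegans that had left the dauer larva, a stress-resistant arrested stage, in a strain that also lacked hzl-1. In all, 4 post-dauer libraries of polyadenylated RNA from whole hermaphrodites were compared, 2 labelled daf-2; aak(0); hzl-1 and 2 labelled daf-2; hzl-1. The first group carried mutations in aak-1 and aak-2, the genes of both AMPK catalytic subunits, and is called aak(0) below. The label of the second names no AMPK mutation, and it is called hzl-1. Every animal of both groups also carried a daf-2 mutation, which impairs the insulin/IGF receptor and drives larvae into dauer at raised temperature, and a mutation of hzl-1, the gene C44H9.4. The labels name no alleles. All libraries used here carry hzl-1 in their label, so none shows the effect of that mutation. Post-dauers were collected after 192 h and dauers of the same genotypes, 2 libraries each, after 96 h at 25 °C. The series design places the post-dauers 96 h after a shift to permissive temperature, whereas the growth protocol names 25 °C alone. Whether the 2 libraries of a group are separate cultures is not stated in the labels. The p-values therefore measure the spread between libraries, which may be technical.

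The genes compared were those with a mean of at least 1 FPKM (fragments scaled to transcript length and to the mapped fragments of the library) over the 4 post-dauer libraries. They numbered 14333 of the 46904 genes in the authors' table, and 20661 genes were above 0 in at least 1 post-dauer library. At the edge of the filter, 1632 genes had a mean under 2 FPKM, and 1442 genes outside it had a mean of at least 0.5 FPKM.

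AMPK is a heterotrimer of a catalytic alpha, a scaffold beta and a regulatory gamma subunit that is activated when cellular energy runs low and that slows anabolic work such as lipid synthesis. In C. elegans the alpha subunits are encoded by aak-1 and aak-2, and the upstream kinase by par-4, the LKB1 homologue. In dauer larvae AMPK is known for preserving stored fat and for keeping germline stem cells quiescent, and animals without it recover from dauer with poor fertility. The comparison asks which transcripts differ after dauer when AMPK is missing from animals that also lack hzl-1.

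The aak(0) post-dauer libraries held 20.65 and 26.98 M reads and the hzl-1 post-dauer libraries 15.61 and 18.75 M reads. Reads of rRNA genes took 5.40% of aak(0) library 2 and between 0.559% and 0.806% of the other post-dauer libraries. The hzl-1 libraries had a Spearman correlation of 0.975 over the genes compared, with 3.06% of genes more than 2 times apart. The aak(0) libraries had a correlation of 0.923 with 17.1% of genes that far apart, and aak(0) library 1 correlated better with hzl-1 libraries 1 and 2 (0.937 and 0.946) than with its own replicate. For aak(0) library 2 those correlations were 0.893 and 0.878. The labels speak of post-dauer animals and not of adults, so adult markers were checked. Markers of the adult hermaphrodite were abundant in all 4 libraries, with a summed 1651 to 2130 FPKM for 7 oocyte markers, 449.8 to 937.7 FPKM for 7 sperm markers and 2957 to 6297 FPKM for 3 uterine markers. The 5 dauer markers summed to 7.67 and 4.53 FPKM in aak(0) and 51.1 and 22.03 FPKM in hzl-1 post-dauers. That gap came from scl-11 and scl-12, the 2 that passed the filter. Of the others, col-40 was higher in aak(0) (0.42 and 0.44 against 0.23 and 0.32 FPKM), and col-2 and col-37 overlapped. The 5 male-specific somatic markers summed to 0.43 to 1.81 FPKM. In whole animals, fewer cells of a type and less RNA per cell cannot be told apart.

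The AMPK genes themselves came first. Transcripts of aak-2 (WBGene00020142; chromosome X, 16796087 to 16803357, build WBcel235, as the files list it) measured 9.85 and 9.4 FPKM in the aak(0) libraries and 20.2 and 18.4 FPKM in the hzl-1 libraries. Both aak(0) values lay below both hzl-1 values, and aak-2 fell (log2 difference -0.93 ± 0.20 SE, limma adjusted p = 0.0454). For aak-1 (WBGene00019801, chromosome III, 8756995 to 8761101) the levels were 7.16 and 7.72 FPKM in the aak(0) libraries and 8.75 and 8.59 FPKM in the hzl-1 libraries, and the difference did not pass the test (limma adjusted p = 0.655). Neither value checks the genotype, because the deleted parts of the genes are not given and a gene-level value includes exons outside a deletion. The beta subunit genes aakb-1 and aakb-2, the gamma subunit genes aakg-1 and aakg-2 and par-4 had log2 differences of 0.56, 0.50, 0.18, 0.49 and -0.32, none of which passed the test (limma adjusted p from 0.168 to 0.556). Of the 14 tested genes of AMPK subunits and upstream kinases, aak-2 was the only one called. The call was lost in 11 of 23 alternatives (adjusted p of 0.00313 to 0.237 over all of them), among them a pseudocount of 0.1, no filter, the fit of the 4 post-dauer libraries alone, the replicate block and the fits without each post-dauer or each aak(0) dauer library. EdgeR called it (adjusted p = 0.0414).

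Transcripts of hzl-1 (C44H9.4, chromosome V, 12835708 to 12839783) were low throughout, at 3.28 and 0.490 FPKM in the aak(0) libraries and 0.470 and 1.44 FPKM in the hzl-1 libraries. The groups overlapped, and the difference did not pass (limma adjusted p = 0.654). Likewise daf-2, at 33.2 and 13.8 FPKM in the aak(0) libraries and 23.3 and 27.98 FPKM in the hzl-1 libraries, and daf-16, the FOXO transcription factor held back by insulin signalling, at 59.5 and 48.8 FPKM in the aak(0) libraries and 61.6 and 51.7 FPKM in the hzl-1 libraries, did not pass (limma adjusted p = 0.729 and 0.844). For crtc-1, the transcriptional coactivator that AMPK phosphorylates in worms, levels were 11.06 and 11.4 FPKM in the aak(0) libraries and 7.38 and 6.79 FPKM in the hzl-1 libraries, higher in both aak(0) libraries but short of the threshold (limma adjusted p = 0.132). Among 23 tested AMPK substrates and effectors limma called 0, with 4 at an unadjusted p under 0.05, edgeR called 0 and DESeq2 called 1. One of the 23 was pod-2, acetyl-CoA carboxylase, at 44.6 and 37.1 FPKM in the aak(0) libraries and 74.8 and 62.3 FPKM in the hzl-1 libraries, with a limma adjusted p of 0.0803.

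Across all genes, 789 (5.5%) were higher and 78 (0.544%) were lower in aak(0) than in hzl-1 post-dauers, at a Benjamini-Hochberg adjusted p under 0.05 in limma. Together the 867 calls were 6.05% of the genes tested, and 91.0% of them were higher in aak(0). Differences passed 1 on the log2 scale in 704 of the higher and 74 of the lower genes. In the edgeR quasi-likelihood test on recovered reads, 577 of 17050 genes were higher (3.38%) and 134 lower (0.786%), so that 81.2% of its calls were higher. Both tools called 446 of the same genes higher and 61 of the same genes lower, and no gene was called in opposite directions. The median log2 difference of all genes tested was 0.15, and it was 0.03 after TMM scaling of the FPKM values and -0.06 after median centring, where 82.0% and 73.8% of calls were higher.

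The size of these counts rested on single libraries. Without hzl-1 post-dauer library 1 the fit called 103 genes higher and 20 lower, and without library 2 of that group 168 and 51. Leaving out aak(0) post-dauer library 2 gave 549 and 30, and leaving out aak(0) post-dauer library 1 gave 947 and 1244. The dauer libraries enter only the estimate of the spread, and the counts were 321 higher and 33 or 32 lower without aak(0) dauer library 1 or 2, and 1220 or 1211 higher and 92 lower without hzl-1 dauer library 1 or 2. In these fits the lone post-dauer library is assumed to vary like the other groups. No called gene could change the sign of its difference in these 8 fits. The post-dauer groups did not overlap for any of the 789 higher and 78 lower genes, and dauer libraries do not enter the post-dauer means. Lack of overlap was common: 38.6% of all genes tested were higher and 12.8% lower in both aak(0) libraries than in both hzl-1 libraries. The fit of the 4 post-dauer libraries alone called 257 higher and 24 lower.

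**Figure D1:**
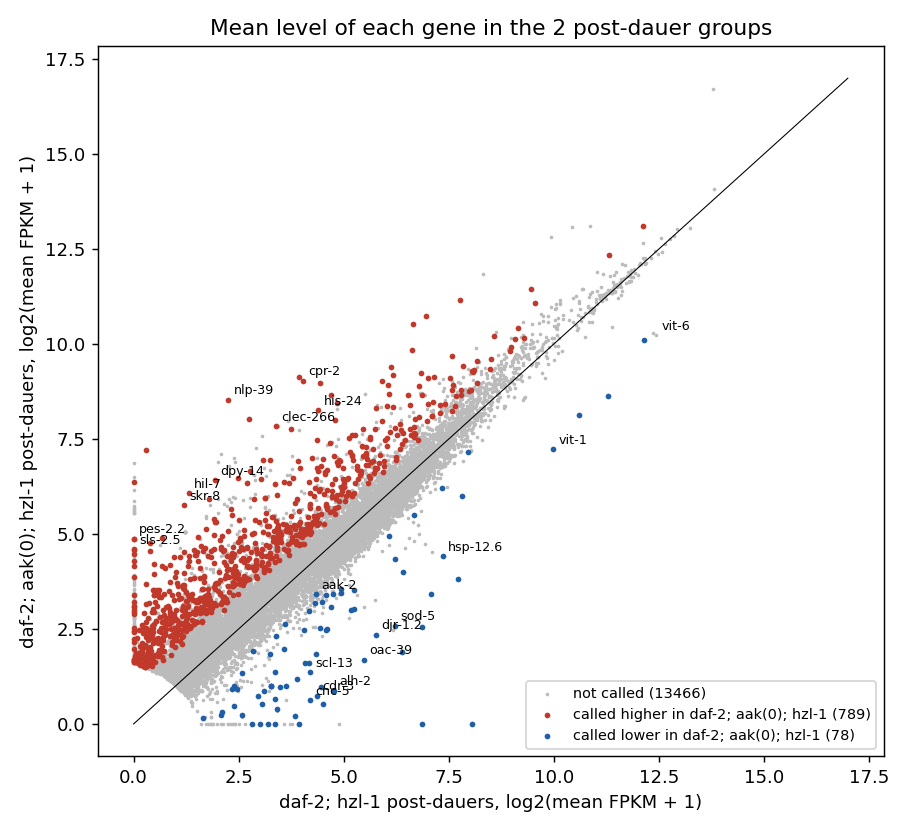
Mean level of each of the 14333 genes in the 2 post-dauer groups, as log2(mean FPKM + 1), with hzl-1 on the x axis, aak(0) on the y axis and the line of equal levels. Red points are the 789 genes called higher in aak(0), blue points the 78 called lower and grey points the rest, and the red cloud lies above the line over the whole range of levels.

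The 8 largest rises among genes with a name, a mean of at least 5 FPKM and groups that did not overlap were nlp-39, cpr-2, hil-7, pes-2.2, clec-266, skr-8, sls-2.5 and dpy-14. The neuropeptide-like gene nlp-39 (WBGene00008295, chromosome I, 12461645 to 12461925) measured 373 and 365 FPKM in the aak(0) libraries and 2.25 and 5.32 FPKM in the hzl-1 libraries. Both aak(0) values were far above both hzl-1 values, and the ratio of the group means was 97.5 (log2 difference 6.35 ± 0.41 SE, limma adjusted p = 0.00162). For cpr-2 (chromosome V, 16533004 to 16534110), a cathepsin B-like protease gene, 776 and 275 FPKM in the aak(0) libraries and 13.1 and 17.8 FPKM in the hzl-1 libraries were read. It rose with the aak(0) libraries well apart from each other, at a ratio of means of 34.1 (log2 difference 4.83 ± 0.45 SE, limma adjusted p = 0.00340). The C-type lectin domain gene clec-266 (chromosome X, 6617393 to 6622915) stood at 237 and 217.91 FPKM in the aak(0) libraries and 4.63 and 14.2 FPKM in the hzl-1 libraries, a rise of 4.62 on the log2 scale (limma adjusted p = 0.00381). It shares 12.2% of its exon bases with kqt-1 on the opposite strand.

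The cuticle collagen gene dpy-14 (chromosome I, 6843589 to 6845134) measured 93.6 and 76.2 FPKM in the aak(0) libraries and 2.16 and 3.48 FPKM in the hzl-1 libraries (log2 difference 4.51 ± 0.27 SE, limma adjusted p = 0.00131). A second collagen gene, dpy-17, was close behind with 94.98 and 104.46 FPKM in the aak(0) libraries and 5.09 and 6.61 FPKM in the hzl-1 libraries (log2 difference 3.89 ± 0.20 SE, limma adjusted p = 0.000686). These were the 2 called members among 34 tested molting and larval cuticle genes, and the count of 2 held without each of the 8 libraries. The share of 5.88% was near the 5.5% of all genes. Of 11 adult cuticle genes limma called 0, with 1 at an unadjusted p under 0.05. The largest difference of any gene named here belonged to C54C8.12 (chromosome I, 12456918 to 12457209), which has no gene name in the files and was picked after its values were seen. It measured 142.33 and 153 FPKM in the aak(0) libraries and 0 and 0.440 FPKM in the hzl-1 libraries (log2 difference 6.95 ± 0.33 SE, limma adjusted p = 0.000686).

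For some calls the recovered reads were few, or did not match the FPKM. The splice leader RNA gene sls-2.5 was listed at 0 in both hzl-1 libraries and at 19.5 and 26.9 FPKM in aak(0), where the recovered reads were 1 and 4. For pes-2.2 the FPKM were 0 in both hzl-1 libraries and 17.9 and 38.7 in aak(0), where the recovered reads were 9 and 13. Reads over the 4 post-dauer libraries were compared with those that the FPKM, the exon length and the depth would give, relative to the median of all genes. They came to 1.73% of that median for pes-2.2 and 0.626% for its paralogue pes-2.1, so the FPKM of both genes did not come from these reads alone. Among called genes of at least 300 exon bases, 30 of 739 higher (4.06%) and 4 of 69 lower ones (5.8%) were under 20% of the median, against 1.8% of all genes. Over the 4 post-dauer libraries, 32 of the 789 higher and 5 of the 78 lower genes had fewer than 20 reads in all. Both hzl-1 libraries were listed at 0 for 28 of the higher genes, and both aak(0) libraries for 7 of the lower genes.

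**Figure D2:**
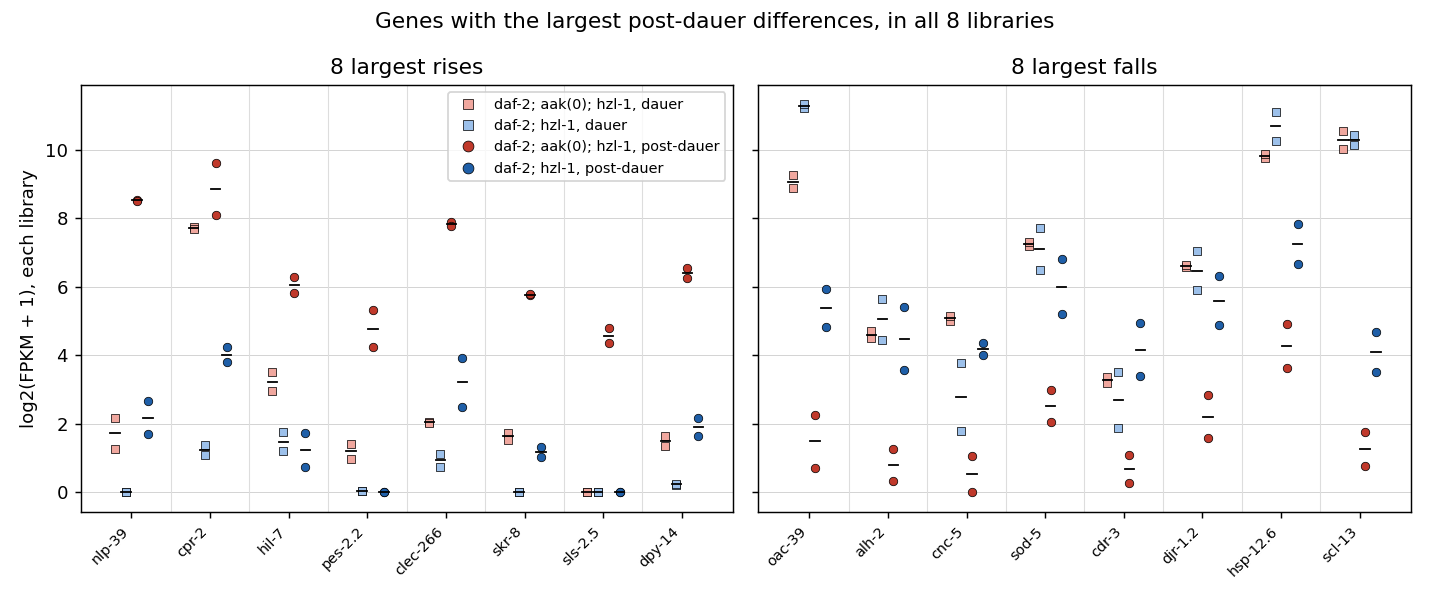
Level of the genes with the 8 largest rises (left) and the 8 largest falls (right), as log2(FPKM + 1), with a marker for each library and a bar for the mean of its group. Squares are dauers and circles post-dauers, red for aak(0) and blue for hzl-1. For the falls, the dauer squares of both genotypes mostly lie at or above the blue circles, and the red circles lie lowest.

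Early embryonic genes were called higher at a larger share than all genes. Of 25 tested early embryonic zygotic genes, those switched on as the embryo starts its own transcription, 11 rose and none fell. For comparison, 5.5% of all genes rose and 0.544% fell. The median log2 difference of the list was 1.21 against 0.15 for all genes. The called members were vet-6, pes-2.1, pes-10, pes-8, sdz-26, sdz-28, sdz-30, sdz-33, tbx-37, tbx-38 and elt-1. The gene vet-6 (chromosome I, 13269984 to 13272784) measured 8.79 and 7.45 FPKM in the aak(0) libraries and 0.260 and 0.310 FPKM in the hzl-1 libraries (log2 difference 2.82 ± 0.23 SE, limma adjusted p = 0.00238). The early embryonic transcript pes-10 measured 4.69 and 3.03 FPKM in the aak(0) libraries and 0.260 and 0.380 FPKM in the hzl-1 libraries, a rise of 1.86 (limma adjusted p = 0.0114). In both genes each aak(0) library was at least several times above each hzl-1 library. The T-box factor tbx-37, which acts in anterior blastomeres, was near 0 in hzl-1, with 2.51 and 2.46 FPKM in the aak(0) libraries and 0 and 0.130 FPKM in the hzl-1 libraries (log2 difference 1.71 ± 0.21 SE, limma adjusted p = 0.00896). The skn-1-dependent zygotic gene sdz-28 measured 10.7 and 3.72 FPKM in the aak(0) libraries and 0.5 and 0.260 FPKM in the hzl-1 libraries, with the first aak(0) library the higher one (log2 difference 2.43 ± 0.41 SE, limma adjusted p = 0.0239). Levels of pes-2.1 were 101.37 and 60.2 FPKM in the aak(0) libraries and 4.88 and 6.06 FPKM in the hzl-1 libraries, but its recovered reads were 6 and 14 in aak(0) and 1 and 0 in hzl-1, so the deposited measures do not match for this gene and its call is uncertain. The GATA factor elt-1, which specifies epidermis in the embryo, measured 15.9 and 11.97 FPKM in the aak(0) libraries and 5.39 and 5.00 FPKM in the hzl-1 libraries (log2 difference 1.26 ± 0.22 SE, limma adjusted p = 0.0268). EdgeR called 10 of the 25 higher. The count in limma was 2 without hzl-1 post-dauer library 1, 4 without aak(0) dauer library 1 or 2 or hzl-1 post-dauer library 2, and 2 in the fit of the 4 post-dauer libraries alone. The summed level of 8 early embryo markers was 30.1 and 9.70 FPKM in aak(0) and 4.52 and 7.80 FPKM in hzl-1. Of these sums vet-2 alone gave 20.2 and 2.3 FPKM in aak(0) and 3.58 and 5.62 FPKM in hzl-1, with the groups overlapping. The part that embryo number plays in these values was not tested.

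Other genes of embryos and larvae, picked after their values were seen, rose with them. The astacin protease gene hch-1, needed for hatching (chromosome X, 14696412 to 14699977), measured 18.4 and 14.3 FPKM in the aak(0) libraries and 0.700 and 0.680 FPKM in the hzl-1 libraries (log2 difference 3.35 ± 0.23 SE, limma adjusted p = 0.00165). The homeobox gene ceh-43, a Distal-less homologue, measured 26.6 and 21.3 FPKM in the aak(0) libraries and 2.17 and 2.28 FPKM in the hzl-1 libraries (log2 difference 2.94 ± 0.22 SE, limma adjusted p = 0.00220). The proneural bHLH gene hlh-14 measured 8.87 and 10.4 FPKM in the aak(0) libraries and 0.260 and 0.540 FPKM in the hzl-1 libraries (log2 difference 2.93 ± 0.23 SE, limma adjusted p = 0.00221). In each of them the aak(0) libraries agreed closely and the hzl-1 libraries lay far below. Caveolin gene cav-1, whose protein marks cortical granules of the egg, was the 1 called member of 18 eggshell and egg activation genes (5.56%, against 5.5% of all genes). It measured 330.1 and 370.3 FPKM in the aak(0) libraries and 24.9 and 30.1 FPKM in the hzl-1 libraries (log2 difference 3.63 ± 0.44 SE, limma adjusted p = 0.00825).

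Several name families, also picked after their values were seen, had a large share of members called higher against the 5.5% of all genes. The Skp1-related genes, whose products join cullins to F-box proteins, had 9 of 20 members higher. In skr-8 (chromosome IV, 17165191 to 17165855) the levels were 52.98 and 53.9 FPKM in the aak(0) libraries and 1.05 and 1.51 FPKM in the hzl-1 libraries, a ratio of means of 41.7 (log2 difference 4.58 ± 0.23 SE, limma adjusted p = 0.000686). Its neighbour skr-9 measured 29.6 and 27.8 FPKM in the aak(0) libraries and 0.520 and 0.690 FPKM in the hzl-1 libraries (log2 difference 4.21 ± 0.21 SE, limma adjusted p = 0.000686), and skr-10, elsewhere on chromosome IV, measured 38.5 and 29.3 FPKM in the aak(0) libraries and 2.82 and 1.80 FPKM in the hzl-1 libraries (log2 difference 3.40 ± 0.27 SE, limma adjusted p = 0.00221). These paralogues are similar enough that reads could be divided among them. F-box B genes had 20 of 28 members higher with log2 differences of 1.17 to 2.11, 11 of them among the 16 tested on chromosome II, and fbxb-54 measured 4.50 and 4.14 FPKM in the aak(0) libraries and 0.150 and 0.320 FPKM in the hzl-1 libraries. The nematode-specific peptide family c, all 18 tested members of which lie on chromosome X, had 15 higher (1.24 to 3.40), with nspc-10 at 143 and 108 FPKM in the aak(0) libraries and 21.1 and 22.2 FPKM in the hzl-1 libraries. T-box genes had 5 of 9 higher, sdz genes 9 of 18, fungus-induced peptide related genes (fipr) 7 of 22, insulin-like peptide genes (ins) 7 of 27, transthyretin-like genes (ttr) 14 of 54 with 1 lower, and C-type lectin domain genes (clec) 17 of 89.

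Linker histone genes, whose H1 proteins bind DNA between nucleosomes, had the highest share called of any list. Of 8 tested, 4 rose and none fell, where 5.5% of all genes rose, and the median log2 difference was 1.45. In his-24 (WBGene00001898, chromosome X, 14490094 to 14491115) the levels were 307 and 301 FPKM in the aak(0) libraries and 19.7 and 20.2 FPKM in the hzl-1 libraries, a ratio of means of 15.2 (log2 difference 3.86 ± 0.26 SE, limma adjusted p = 0.00162). The replicates of each group were nearly equal and the groups far apart. For hil-3 (chromosome X, 8159153 to 8160084) they were 176 and 175 FPKM in the aak(0) libraries and 20.8 and 18.7 FPKM in the hzl-1 libraries, with a ratio of 8.89 (log2 difference 3.09 ± 0.21 SE, limma adjusted p = 0.00165). For hil-7 (chromosome IV, 6646034 to 6646936), almost silent in hzl-1, they were 77.6 and 55.9 FPKM in the aak(0) libraries and 0.670 and 2.3 FPKM in the hzl-1 libraries (log2 difference 4.83 ± 0.42 SE, limma adjusted p = 0.00265). The fourth, hil-2 (chromosome IV, 6294234 to 6295219), measured 317 and 347 FPKM in the aak(0) libraries and 64.2 and 64.4 FPKM in the hzl-1 libraries (log2 difference 2.35 ± 0.13 SE, limma adjusted p = 0.000957). The same 4 were called by edgeR, and the limma count was 4 or 5 without each post-dauer library. Exons of his-24 share 18.9% of their bases with 2 genes on the opposite strand. All 4 other tested linker histone genes had positive differences that did not pass.

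Core histones rose in part. Of 38 tested core histone genes 9 were called higher and none lower, where 5.5% of all genes were called higher. All 38 had a positive difference, and the median was 1.19 on the log2 scale. For 15 of the 38, 2 of them called, recovered reads relative to the FPKM were under 20% of the median, against 1.8% of all genes. The called genes were his-3, his-6, his-17, his-18, his-25, his-31, his-32, the H3.3 gene his-72 and the H2A.Z gene htz-1. At low level, his-32 measured 16.42 and 20.4 FPKM in the aak(0) libraries and 1.22 and 1.80 FPKM in the hzl-1 libraries (log2 difference 2.95 ± 0.26 SE, limma adjusted p = 0.00292) and his-31 measured 7.93 and 8.80 FPKM in the aak(0) libraries and 1.33 and 1.51 FPKM in the hzl-1 libraries (log2 difference 1.95 ± 0.24 SE, limma adjusted p = 0.00844). At high level, his-72 measured 554 and 691 FPKM in the aak(0) libraries and 266 and 265 FPKM in the hzl-1 libraries (log2 1.22, limma adjusted p = 0.0119) and htz-1 869 and 1069.7 FPKM in the aak(0) libraries and 489 and 519.9 FPKM in the hzl-1 libraries (log2 0.93, limma adjusted p = 0.0260). EdgeR called only 2 of the 38, as did limma in the fit of the 4 post-dauer libraries alone, and limma called 1 without hzl-1 post-dauer library 1, 2 without hzl-1 post-dauer library 2, 3 without aak(0) dauer library 1 or 2 or aak(0) post-dauer library 2, 19 without hzl-1 dauer library 1 or 2. Core histone genes are near-identical copies whose transcripts mostly lack long poly(A) tails, so their values after poly(A) selection are uncertain.

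**Figure D3:**
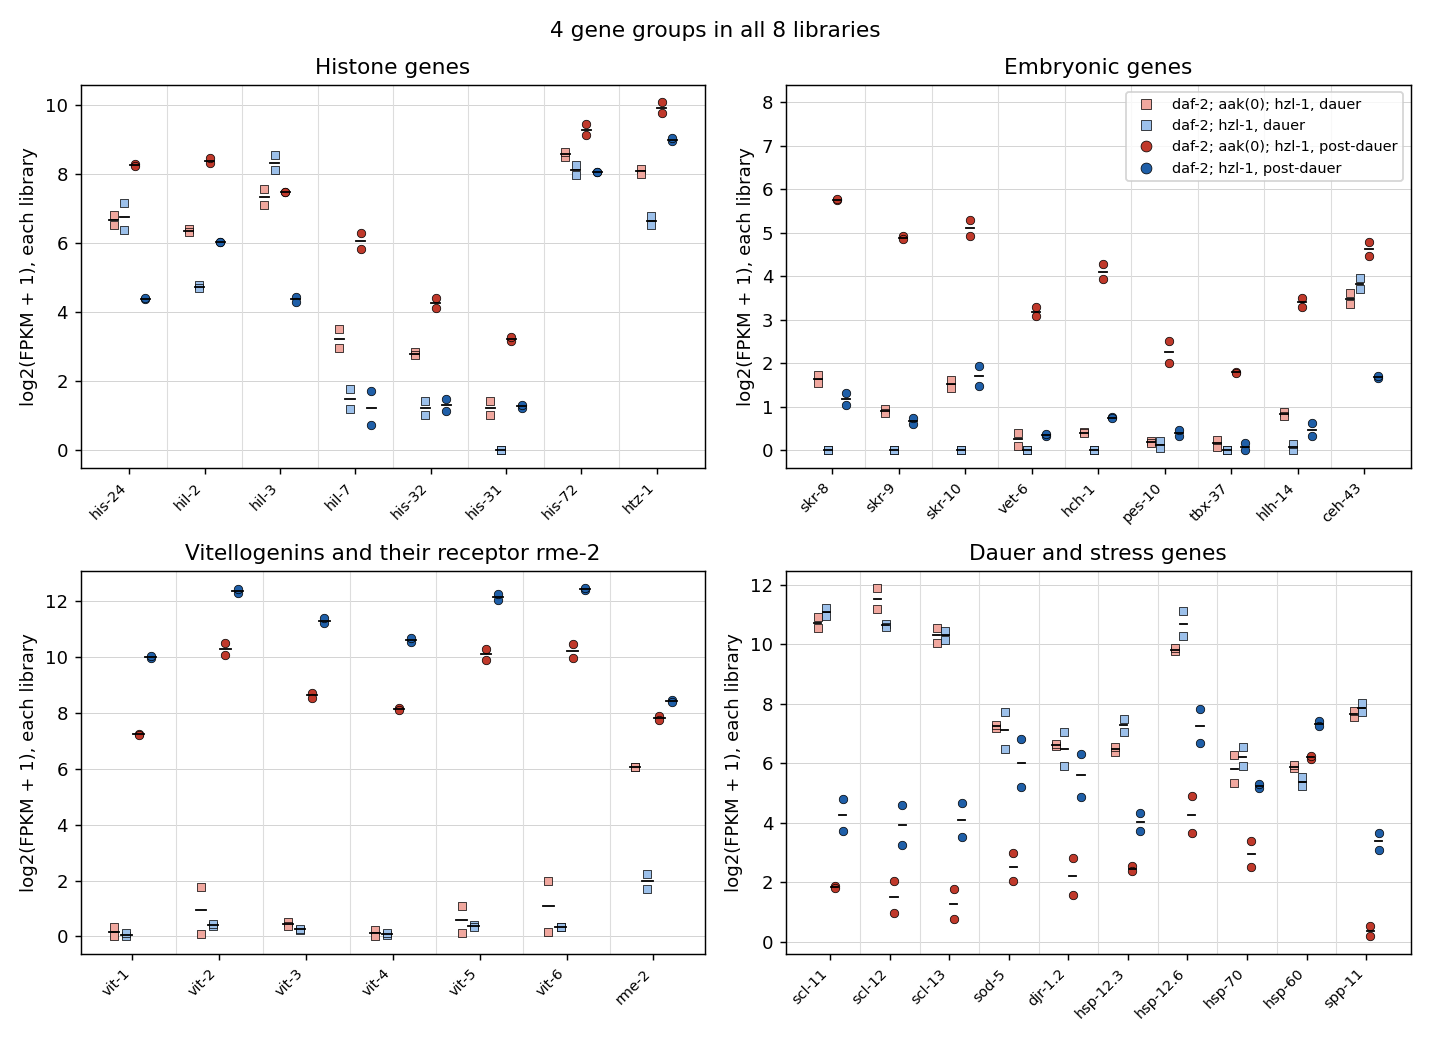
Level of 4 groups of genes in all 8 libraries, as log2(FPKM + 1), with a marker for each library and a bar for each group mean. Squares are dauers, circles post-dauers, red aak(0) and blue hzl-1. Among post-dauers, red circles lie above blue ones for the histone and embryonic genes and below them for the vitellogenins and the dauer and stress genes.

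Yolk protein genes moved the other way. Vitellogenins are made in the adult hermaphrodite intestine and carried to oocytes, and all 6 vitellogenin genes were lower in both aak(0) libraries than in both hzl-1 libraries, as were 12.8% of all genes tested. Of the 11 tested genes of vitellogenins and yolk uptake, vit-1, vit-3, vit-4 and vit-5 fell and none rose, where 0.544% of all genes fell. The median of the list was -2.04. For vit-3 (chromosome X, 3567355 to 3572549) the levels were 418 and 369 FPKM in the aak(0) libraries and 2359.9 and 2671 FPKM in the hzl-1 libraries, so that the hzl-1 mean was 6.39 times the aak(0) mean (log2 difference -2.67 ± 0.16 SE, limma adjusted p = 0.00131). For vit-1 (chromosome X, 7727889 to 7733168) they were 151.86 and 147 FPKM in the aak(0) libraries and 988 and 1039.8 FPKM in the hzl-1 libraries, a factor of 6.79 (log2 difference -2.75 ± 0.18 SE, limma adjusted p = 0.00162). Levels of vit-4 were 284 and 276 FPKM in the aak(0) libraries and 1493 and 1630.4 FPKM in the hzl-1 libraries (log2 difference -2.47 ± 0.17 SE, limma adjusted p = 0.00162), and those of vit-5 1255 and 957 FPKM in the aak(0) libraries and 4198 and 4849 FPKM in the hzl-1 libraries (log2 difference -2.04 ± 0.32 SE, limma adjusted p = 0.0188). The most abundant of them, vit-2 and vit-6, had log2 differences of -2.07 ± 0.49 and -2.22 ± 0.52 SE and missed the threshold (limma adjusted p = 0.0612 and 0.0604). In the fit of the 4 post-dauer libraries alone all 6 were called. In edgeR, vit-3 and vit-4 were called, while vit-1 and vit-5 had adjusted p = 0.0630 and 0.163. The limma count was 3 or 4 without each post-dauer library. Vitellogenin genes share long stretches of sequence, and reads could be divided among them.

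The list sum for yolk and yolk uptake was 6172 and 4977 FPKM in the aak(0) libraries and 20631 and 22464 FPKM in the hzl-1 libraries. The yolk receptor gene rme-2, expressed in oocytes, measured 234 and 212 FPKM in the aak(0) libraries and 355 and 331 FPKM in the hzl-1 libraries and did not pass (limma adjusted p = 0.141). Intestine genes as a whole did not follow the vitellogenins: in a list of 21 intestine markers without vitellogenins limma called 0, with 3 at an unadjusted p under 0.05, edgeR called 0 and DESeq2 1, and the median was 0.02. Uterine lumen proteins had positive differences in all 5 members, of 0.29 to 0.99, but limma and edgeR called 0, with 3 at an unadjusted p under 0.05. In ule-3 and ule-4 the levels were 1688 and 1721 FPKM in the aak(0) libraries and 793 and 923 FPKM in the hzl-1 libraries and 4245 and 3169 FPKM in the aak(0) libraries and 1958 and 2665 FPKM in the hzl-1 libraries.

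Fat-binding proteins rose in part. Of 16 tested lipid-binding and retinol-binding protein genes, far-6, lbp-1 and far-2 rose and none fell, where 5.5% of all genes rose and 0.544% fell. For far-6 (chromosome IV, 13328359 to 13329497) the levels were 123 and 124 FPKM in the aak(0) libraries and 28.9 and 28.5 FPKM in the hzl-1 libraries (log2 difference 2.07 ± 0.15 SE, limma adjusted p = 0.00165), and the fatty acid binding protein gene lbp-1 measured 313 and 359 FPKM in the aak(0) libraries and 96.2 and 91.6 FPKM in the hzl-1 libraries (log2 difference 1.83 ± 0.25 SE, limma adjusted p = 0.0121). Far more abundant, far-2 measured 8706 and 8899 FPKM in the aak(0) libraries and 4525 and 4419 FPKM in the hzl-1 libraries (log2 difference 0.98 ± 0.20 SE, limma adjusted p = 0.0382). The count was 1 without aak(0) post-dauer library 2 or hzl-1 post-dauer library 1 or 2, 5 without hzl-1 dauer library 1 or 2. In fatty acid synthesis limma and edgeR called 0 of 26 genes, 5 of which had an unadjusted p under 0.05 and 2 of which DESeq2 called. In beta-oxidation limma called 1 of 38 lower, acox-1.3, and edgeR none.

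The 8 largest falls among genes with a name, a mean of at least 5 FPKM and groups that did not overlap were oac-39, alh-2, cnc-5, sod-5, cdr-3, djr-1.2, hsp-12.6 and scl-13. The acyltransferase-like gene oac-39 (chromosome V, 246618 to 251756) measured 3.83 and 0.630 FPKM in the aak(0) libraries and 60.2 and 27.2 FPKM in the hzl-1 libraries (log2 difference -3.89 ± 0.55 SE, limma adjusted p = 0.0125), and 472 and 611 FPKM in aak(0) and 2391 and 2566 FPKM in hzl-1 dauers. The superoxide dismutase gene sod-5 (chromosome II, 4417683 to 4419131) measured 6.89 and 3.16 FPKM in the aak(0) libraries and 111 and 35.9 FPKM in the hzl-1 libraries (log2 difference -3.49 ± 0.62 SE, limma adjusted p = 0.0261), and 89.1 to 210.3 FPKM across the 4 dauer libraries. The DJ-1 homologue djr-1.2 measured 6.14 and 2.02 FPKM in the aak(0) libraries and 78.8 and 28.4 FPKM in the hzl-1 libraries, the hzl-1 mean being 13.1 times the aak(0) mean (log2 difference -3.38 ± 0.62 SE, limma adjusted p = 0.0285). The small heat-shock gene hsp-12.6 (chromosome IV, 9446385 to 9446884) measured 29.2 and 11.5 FPKM in the aak(0) libraries and 225 and 100.78 FPKM in the hzl-1 libraries (log2 difference -2.97 ± 0.53 SE, limma adjusted p = 0.0272). In all 4 genes library 1 was the higher library of each group, and the lower hzl-1 value still exceeded the higher aak(0) value. Of the others, alh-2, an aldehyde dehydrogenase gene, measured 1.43 and 0.25 FPKM in the aak(0) libraries and 41.3 and 10.8 FPKM in the hzl-1 libraries (log2 difference -3.68 ± 0.68 SE, limma adjusted p = 0.0286). The cadmium-responsive family gene cdr-3 measured 1.14 and 0.220 FPKM in the aak(0) libraries and 29.5 and 9.56 FPKM in the hzl-1 libraries (log2 difference -3.47 ± 0.68 SE, limma adjusted p = 0.0347). The caenacin gene cnc-5 rested on few reads, 3 and 1 in aak(0), with 1.08 and 0 FPKM in the aak(0) libraries and 19.6 and 15.1 FPKM in the hzl-1 libraries (log2 difference -3.66 ± 0.65 SE, limma adjusted p = 0.0260).

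Of 7 tested dauer markers, the SCP-like genes scl-11, scl-12 and scl-13 fell and none rose, where 0.544% of all genes fell. The other 4 had positive differences that did not pass, and the median of the list was 0.12 (-0.09 with median centring). In the 4 dauer libraries the 3 scl genes stood at 1049.5 to 3751 FPKM. After dauer, scl-11 measured 2.69 and 2.48 FPKM in the aak(0) libraries and 26.6 and 12.2 FPKM in the hzl-1 libraries (log2 difference -2.41 ± 0.34 SE, limma adjusted p = 0.0125), scl-12 3.12 and 0.990 FPKM in the aak(0) libraries and 23.2 and 8.49 FPKM in the hzl-1 libraries (log2 difference -2.40 ± 0.52 SE, limma adjusted p = 0.0455) and scl-13 2.41 and 0.710 FPKM in the aak(0) libraries and 24.4 and 10.5 FPKM in the hzl-1 libraries (log2 difference -2.82 ± 0.46 SE, limma adjusted p = 0.0212). The groups did not overlap for any of the 3, with aak(0) the lower each time. The count was 0 without aak(0) post-dauer library 2, 1 without hzl-1 post-dauer library 1, and 0 in the fit of the 4 post-dauer libraries alone. The saposin-like gene spp-11, chosen after its values were seen, had the same pattern. It measured 0.470 and 0.140 FPKM in the aak(0) libraries and 11.6 and 7.60 FPKM in the hzl-1 libraries (log2 difference -3.01 ± 0.25 SE, limma adjusted p = 0.00248) and 188 to 259.5 FPKM in dauers. The 78 genes called lower had median levels of 3.24 and 1.80 FPKM in aak(0) and 22.9 and 12.2 FPKM in hzl-1 post-dauers, and of 58.2 and 62.3 FPKM in aak(0) and 63.7 and 95.5 FPKM in hzl-1 dauers.

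Targets of the DAF-16 class, stress and longevity genes that FOXO activates when insulin signalling is low, split in both directions. Of 39 tested, 5 rose (dod-3, dod-6, asm-2, ctl-2 and sod-4) and 4 fell (sod-5, djr-1.2, hsp-12.3 and hsp-12.6), with a median of -0.09. Over all genes 5.5% rose and 0.544% fell. The secreted-protein gene dod-3 (chromosome V, 2730594 to 2731098) measured 560.1 and 643 FPKM in the aak(0) libraries and 105 and 123 FPKM in the hzl-1 libraries (log2 difference 2.39 ± 0.18 SE, limma adjusted p = 0.00220) and dod-6 measured 128.94 and 140.03 FPKM in the aak(0) libraries and 42.1 and 28.9 FPKM in the hzl-1 libraries (log2 difference 1.92 ± 0.19 SE, limma adjusted p = 0.00454). The peroxisomal catalase gene ctl-2, at 107 and 103 FPKM in the aak(0) libraries and 50.8 and 55.1 FPKM in the hzl-1 libraries, rose (limma adjusted p = 0.0195). The extracellular superoxide dismutase gene sod-4, at 48.96 and 39.7 FPKM in the aak(0) libraries and 19.4 and 20.6 FPKM in the hzl-1 libraries, rose (limma adjusted p = 0.0443), and so did the sphingomyelinase gene asm-2, at 35.8 and 30.8 FPKM in the aak(0) libraries and 14.6 and 17.6 FPKM in the hzl-1 libraries (limma adjusted p = 0.0305). Small heat-shock gene hsp-12.3 measured 4.83 and 4.24 FPKM in the aak(0) libraries and 19.3 and 12.14 FPKM in the hzl-1 libraries (log2 difference -1.56 ± 0.26 SE, limma adjusted p = 0.0231). The count of 5 higher became 2 without aak(0) post-dauer library 2 or hzl-1 post-dauer library 1 or 2, 3 without aak(0) dauer library 1 or 2, and the count of 4 lower became 0 without aak(0) dauer library 1 or 2 or aak(0) post-dauer library 2 or hzl-1 post-dauer library 1, 2 without hzl-1 post-dauer library 2. In the fit of the 4 post-dauer libraries alone 3 were higher and 0 lower.

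Among 27 chaperone and unfolded protein response genes, hsp-70, hsp-60 and hsp-110 fell and dnj-27 rose, where 0.544% of all genes fell and 5.5% rose. The heat-inducible hsp-70 measured 9.48 and 4.73 FPKM in the aak(0) libraries and 34.8 and 38.5 FPKM in the hzl-1 libraries (log2 difference -2.28 ± 0.42 SE, limma adjusted p = 0.0285). The mitochondrial chaperonin gene hsp-60 measured 69.8 and 75.8 FPKM in the aak(0) libraries and 172 and 149.97 FPKM in the hzl-1 libraries (log2 difference -1.13 ± 0.16 SE, limma adjusted p = 0.0139), and hsp-110, whose product releases nucleotide from HSP70, 148 and 135 FPKM in the aak(0) libraries and 259 and 236 FPKM in the hzl-1 libraries (log2 difference -0.80 ± 0.13 SE, limma adjusted p = 0.0202). EdgeR called hsp-70 and hsp-60. The count of 3 lower was 0 without hzl-1 post-dauer library 1 or 2, 7 without aak(0) post-dauer library 1. It was 0 in the fit of the 4 post-dauer libraries alone.

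Immune effector genes were called higher at a larger share than the 5.5% of all genes. Of 64 tested, 17 rose and none fell in limma, the median was 0.95, and edgeR called 15 higher and 1 lower. The list leaves out cnc-5 and spp-11, which fell. By name family, 3 of 21 tested spp genes rose and 2 fell, and 2 of 10 tested cnc genes rose and 1 fell. The invertebrate lysozyme gene ilys-3 (chromosome IV, 2464456 to 2465401) measured 688 and 315 FPKM in the aak(0) libraries and 23.3 and 17.9 FPKM in the hzl-1 libraries (log2 difference 4.44 ± 0.58 SE, limma adjusted p = 0.00991), and the lysozyme gene lys-7 (chromosome V, 3481421 to 3482600) 1543 and 1416 FPKM in the aak(0) libraries and 89.3 and 109 FPKM in the hzl-1 libraries (log2 difference 3.89 ± 0.77 SE, limma adjusted p = 0.0361). Saposin-like spp-8 measured 218.41 and 213 FPKM in the aak(0) libraries and 46.1 and 59.3 FPKM in the hzl-1 libraries (log2 difference 2.03 ± 0.17 SE, limma adjusted p = 0.00247). The adaptor gene tir-1, the SARM1 homologue upstream of p38 signalling, measured 45.5 and 34.5 FPKM in the aak(0) libraries and 7.20 and 8.25 FPKM in the hzl-1 libraries (log2 difference 2.22 ± 0.23 SE, limma adjusted p = 0.00547). The defensin-like abf-2 measured 182.82 and 133 FPKM in the aak(0) libraries and 41.6 and 42.8 FPKM in the hzl-1 libraries (log2 difference 1.86 ± 0.31 SE, limma adjusted p = 0.0232), and the caenacin gene cnc-4 100.05 and 112.8 FPKM in the aak(0) libraries and 16.9 and 22 FPKM in the hzl-1 libraries (log2 difference 2.40 ± 0.26 SE, limma adjusted p = 0.00603), while its relative cnc-5 fell. The other called members were abf-1, clec-41, clec-60, ilys-2, ilys-5, irg-2, irg-4, lys-8, nlp-27, nlp-28 and spp-1. The count was 1 without hzl-1 post-dauer library 1, 4 without hzl-1 post-dauer library 2, 8 without aak(0) dauer library 1 or 2 or aak(0) post-dauer library 2, 27 without hzl-1 dauer library 1 or 2. In the digestive tract, the cathepsin B-like genes cpr-1 and cpr-2 rose among 25 digestive proteases, with cpr-1 at 1517 and 1916 FPKM in the aak(0) libraries and 130.1 and 118 FPKM in the hzl-1 libraries (log2 difference 3.77 ± 0.68 SE, limma adjusted p = 0.0272). The count of 2 was 1 without aak(0) dauer library 1 or 2 and without each of the 4 post-dauer libraries. Of 43 detoxification enzyme genes 5 rose (cyp-13A7, cyp-34A9, cyp-35B1, cyp-37B1 and gst-5) and none fell. That count was 0 without hzl-1 post-dauer library 1, 1 without hzl-1 post-dauer library 2, 3 without aak(0) dauer library 1 or 2, and 0 in the fit of the 4 post-dauer libraries alone.

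**Figure D4:**
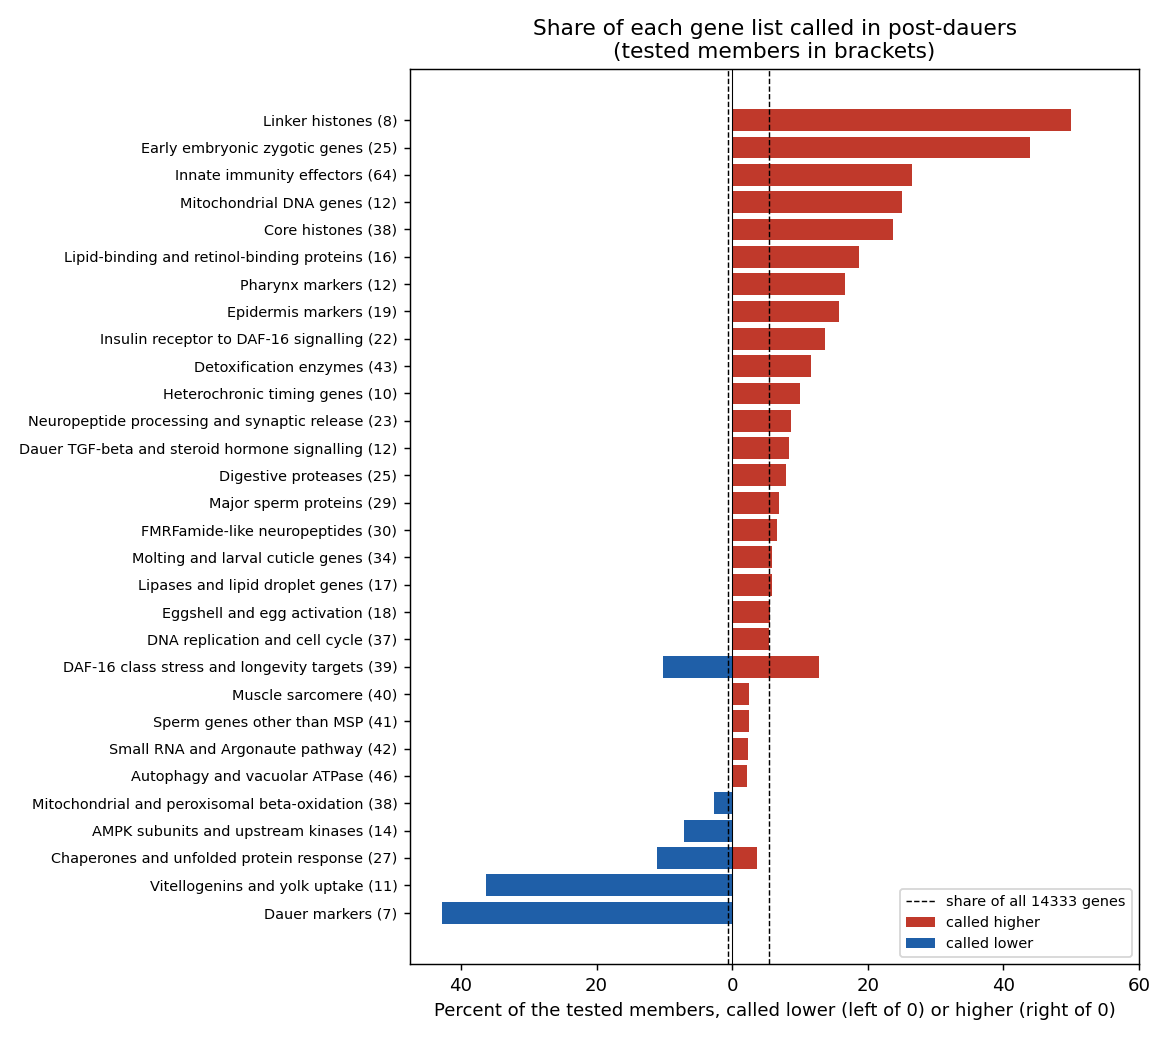
Share of the tested members of each gene list called higher (red, right of 0) or lower (blue, left of 0) in aak(0) post-dauers, in percent, with the number of tested members in brackets and dashed lines at the shares of all 14333 genes, 5.5% higher and 0.544% lower. Lists with no called member are left out. Linker histones and early embryonic genes have the longest red bars, and dauer markers and vitellogenins the longest blue bars.

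Hormone and neuronal gene lists had 1 to 3 called members each. In insulin signalling 3 of 22 tested genes rose (13.6%), ins-7, pqm-1 and ftt-2, and none fell. Of all genes 5.5% rose and 0.544% fell. The insulin-like peptide gene ins-7 measured 35.98 and 28.98 FPKM in the aak(0) libraries and 7.96 and 6.94 FPKM in the hzl-1 libraries (log2 difference 1.98 ± 0.23 SE, limma adjusted p = 0.00685), and pqm-1, a zinc finger factor that acts opposite to DAF-16, 57.8 and 56.4 FPKM in the aak(0) libraries and 27.9 and 29.3 FPKM in the hzl-1 libraries (log2 difference 0.97 ± 0.14 SE, limma adjusted p = 0.0125). The count was 0 without hzl-1 post-dauer library 1 or 2, and 1 in the fit of the 4 post-dauer libraries alone. The TGF-beta ligand gene daf-7, made in sensory neurons, was the 1 of 12 tested dauer TGF-beta and steroid hormone genes called. It rose (8.33% of the list, against 5.5% of all genes). Its levels were 7.94 and 6.84 FPKM in the aak(0) libraries and 1.53 and 1.24 FPKM in the hzl-1 libraries (log2 difference 1.81 ± 0.26 SE, limma adjusted p = 0.0138). The call was lost in the fit of the 4 post-dauer libraries alone (adjusted p = 0.0608) and without hzl-1 post-dauer library 1 (0.0929) or 2 (0.104). In dauers daf-7 stood the other way, at 12.2 and 10.1 FPKM in aak(0) and 42.1 and 28.2 FPKM in hzl-1. Of 23 genes of neuropeptide processing and synaptic release 2 rose (8.7%), unc-119 and snb-1. Of 30 FMRFamide-like neuropeptide genes 2 rose (6.67%), flp-10 and flp-11, against 5.5% of all genes. The counts of 2 became 0 without hzl-1 post-dauer library 1 or 2 and without aak(0) dauer library 1 or 2, and 0 and 1 without aak(0) post-dauer library 2. The FMRFamide-like count was 4 without hzl-1 dauer library 1 or 2.

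Pharynx and epidermis markers had 2 of 12 and 3 of 19 members higher, against 5.5% of all genes. The pharyngeal troponin C gene tnc-2 measured 21.8 and 21.7 FPKM in the aak(0) libraries and 7.58 and 5.66 FPKM in the hzl-1 libraries (log2 difference 1.59 ± 0.20 SE, limma adjusted p = 0.00916), and shares 19.2% of its exon bases with clec-143 on the opposite strand. The transthyretin-like gene ttr-2 measured 2199 and 2101 FPKM in the aak(0) libraries and 670.4 and 819.6 FPKM in the hzl-1 libraries (log2 difference 1.53 ± 0.28 SE, limma adjusted p = 0.0283). The epidermal calls were elt-1, ifa-3 and nhr-25. The pharynx count was 0 without hzl-1 post-dauer library 2, 1 without aak(0) dauer library 1 or 2 or aak(0) post-dauer library 2 or hzl-1 post-dauer library 1, and the epidermis count 0 without hzl-1 post-dauer library 1 or 2, 1 without aak(0) dauer library 1 or 2. In the fit of the 4 post-dauer libraries alone the counts were 1 and 0. Muscle sarcomere genes had 1 of 40 higher (2.5%), tni-3, with a median of 0.40.

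Among mitochondrial DNA genes, all 12 had a positive difference, with a median of 0.69. Limma called 3 complex I genes higher, where 5.5% of all genes were higher. They were nduo-6 at 485 and 747 FPKM in the aak(0) libraries and 267 and 274 FPKM in the hzl-1 libraries (log2 difference 1.15 ± 0.21 SE, limma adjusted p = 0.0283), ndfl-4 at 341 and 447 FPKM in the aak(0) libraries and 214 and 193 FPKM in the hzl-1 libraries (log2 difference 0.94 ± 0.17 SE, limma adjusted p = 0.0259) and nduo-2 at 89.3 and 116 FPKM in the aak(0) libraries and 49.2 and 55.7 FPKM in the hzl-1 libraries (log2 difference 0.95 ± 0.19 SE, limma adjusted p = 0.0357). In each the second aak(0) library, the one with more rRNA, was the highest. EdgeR called none of them, nor did limma in the 4 post-dauer libraries alone, TMM scaling and median centring left none, and the count was 0 without aak(0) dauer library 1 or 2 or hzl-1 post-dauer library 1 or 2, 1 without aak(0) post-dauer library 2. The nuclear-encoded respiratory chain had 0 of 40 called by limma, edgeR or DESeq2 and 16 at an unadjusted p under 0.05, with a median of 0.39.

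Calls among sperm genes were near or below the 5.5% of all genes. All 29 tested major sperm protein genes had a positive difference, with a median of 0.79, and 2 were called (6.9%), msp-64 at 339 and 331 FPKM in the aak(0) libraries and 176 and 138 FPKM in the hzl-1 libraries (log2 difference 1.098 ± 0.22 SE, limma adjusted p = 0.0374) and msp-76. EdgeR called none, nor did limma in the 4 post-dauer libraries alone, and limma called 0 without aak(0) dauer library 1 or 2 or aak(0) post-dauer library 2 or hzl-1 post-dauer library 1 or 2, 14 without hzl-1 dauer library 1 or 2. These genes are near-identical copies. Of 41 other sperm genes 1 rose (2.44%), ssp-16. The autophagy gene epg-2, an adaptor that removes P granule components from somatic cells of the embryo, was the 1 of 46 autophagy and vacuolar ATPase genes called, with 50.5 and 16.3 FPKM in the aak(0) libraries and 4.75 and 5.57 FPKM in the hzl-1 libraries (log2 difference 2.28 ± 0.47 SE, limma adjusted p = 0.0415). This call was lost in 9 of 23 alternatives, among them the fit of the 4 post-dauer libraries alone, the replicate block and the fits without each hzl-1 library or each aak(0) dauer library.

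No member was called by limma in 17 lists that held 465 different tested genes. Of these, 64 had an unadjusted p under 0.05, edgeR called 1 and DESeq2 called 14. They include the germline lists: meiotic chromosome genes (31 tested, median -0.47), P granule genes (24 tested, median -0.32), germline stem cell regulators (21 tested, median -0.11), oocyte RNA-binding and polarity proteins (26 tested, median 0.05) and mitotic spindle genes (42 tested, median -0.12). Only 4 of the 31 meiotic and 5 of the 24 P granule genes had a positive difference. The meiotic median was -0.11 without aak(0) post-dauer library 2 and -0.68 without library 1 of that group. Without aak(0) post-dauer library 1, the fit called 9 of the meiotic and 11 of the spindle genes lower. Ribosomal proteins (79 tested) had differences of -0.33 to 0.53, and proteasome subunits (32 tested) of -0.40 to 0.44. Of 34 histone methylation and heterochromatin genes none was called in the fit of all libraries, and 9 were called lower without aak(0) post-dauer library 1.

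Among the nuclear chromosomes, the share called higher ran from 3.95% on chromosome I and 4.17% on chromosome III to 6.35% on chromosome II, 6.38% on chromosome V and 6.93% on chromosome X. Of 14 genes tested on the mitochondrial DNA, 4 were called higher (28.6%). Chromosome V held 30 of the 78 lower genes (1.08% of its genes). Protein-coding genes gave 735 of the higher and 67 of the lower calls. Small nucleolar RNA genes had a median log2 difference of 1.64 with 6 called higher and 3 lower, and small nuclear RNA genes a median of 2.36 with 1 of 55 called higher, against 0.15 for all genes. The 10 rRNA genes tested had a median of 1.95 with 1 called higher, and aak(0) library 2 held 5.40% rRNA reads against at most 0.806% in the other post-dauer libraries. The part of rRNA carry-over in the values of these short RNAs was not tested.

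The difference between genotypes was also tested in dauers, with libraries that the post-dauer comparison does not use for its means. In dauers 3721 of the same 14333 genes (26%) were higher and 406 (2.83%) lower in aak(0), with a median of 0.43. The hzl-1 dauer libraries held fewer reads (13.99 and 18.72 M) than the aak(0) ones (23.41 and 25.34 M). Of these genes, 8.90% and 5.92% were at 0 in hzl-1 and 1.49% and 1.84% in aak(0) dauers. Reads of rRNA took 12.8% and 3.49% in hzl-1 and 9.61% and 1.12% in aak(0) dauers. The part of depth and rRNA in the dauer and interaction counts was not tested. Of the 789 genes higher in post-dauers, 239 were also called higher in dauers, which is 30.3% of the post-dauer and 6.42% of the dauer calls, near the 26% of all genes. Another 43 were called lower in dauers. Of the 78 lower genes, 11 were also lower in dauers (14.1% and 2.71%, against 2.83% of all genes) and 11 were higher there. The median dauer difference was 0.38 for the higher and -0.08 for the lower genes. The interaction, the post-dauer difference minus the dauer difference, was called above 0 for 535 genes (3.73%) and below 0 for 1195 (8.34%). This balance depended on scaling, with 952 above and 1074 below after TMM scaling and 984 above and 888 below after median centring.

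Among the named genes, his-24 measured 89.8 and 111.97 FPKM in aak(0) and 81.5 and 140.3 FPKM in hzl-1 dauers, where the groups overlapped, and its interaction passed (log2 3.95 ± 0.37 SE, limma adjusted p = 0.00246). For hil-3 the order of the genotypes was the reverse in dauers, 137 and 188 against 274 and 371 FPKM (interaction 4.08 ± 0.30 SE, limma adjusted p = 0.00161). In skr-8 dauer levels were 2.33 and 1.91 against 0 and 0 FPKM, so the group order was the same but the difference smaller (interaction 2.95, limma adjusted p = 0.00380). The vitellogenins were almost silent in dauers, with vit-3 at 0.180 to 0.430 FPKM. For cpr-2, at 214 and 207 against 1.15 and 1.60 FPKM in dauers, the interaction did not pass (limma adjusted p = 0.137), nor for lys-7 at 121 and 109 against 4.91 and 39.4 FPKM (0.558). The mitochondrial genes reversed, with nduo-6 at 443 and 477 FPKM in aak(0) and 1142 and 1095 FPKM in hzl-1 dauers (interaction 2.43, limma adjusted p = 0.00538).

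**Figure D5:**
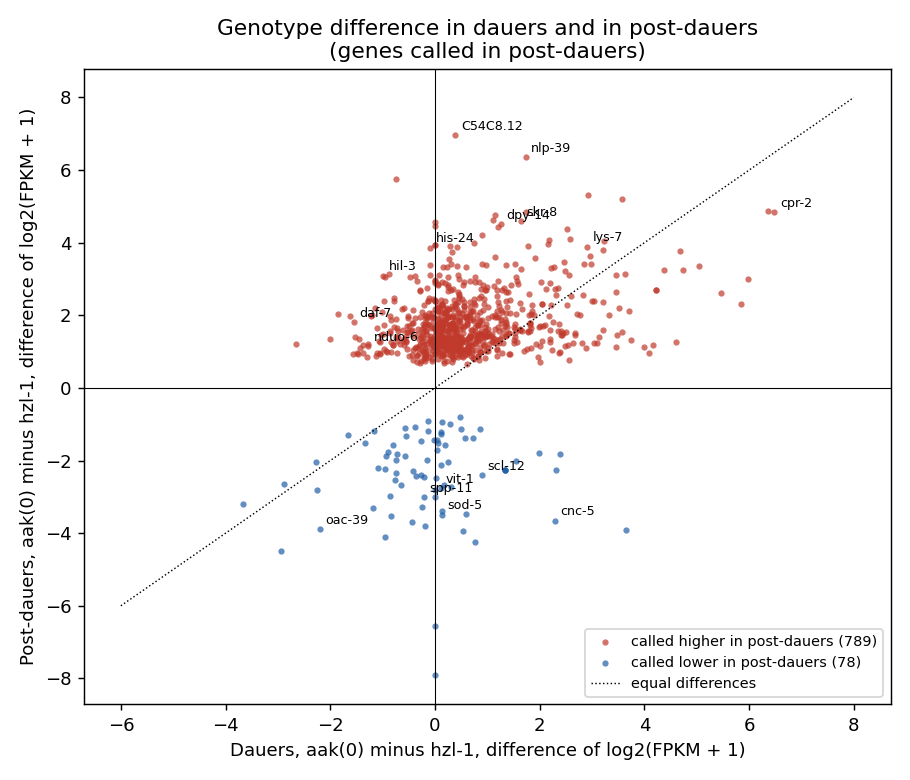
Difference between aak(0) and hzl-1 in log2(FPKM + 1) in dauers (x axis) and in post-dauers (y axis) for the 867 genes called in post-dauers, red where higher and blue where lower in aak(0), with a dotted line of equal differences. Most red points lie near 0 on the x axis and above the dotted line, while cpr-2 lies to the right of that line.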

How the data were processed

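Per the submitters' processing notes, Trimmomatic 0.35, STAR 2.7.1a and RSEM were used with build WBcel235, and DESeq2 1.30.1 is named too. Roles, order and the RSEM version are not given in the sources used here. The authors deposited FPKM for 8 libraries, per the file headers, and for each genotype a table with signal per library, that is read counts divided by a size factor. Every value of those tables was a whole multiple of what 1 read is worth (100% at a tolerance of 0.01 reads), so whole reads were recovered from the deposited signal. They give the depths, 13.99 to 26.98 M reads, and cover counting error only. The log2 fold changes, p-values and test scores that the authors deposited compare stages and were not used.

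Genes passing the filter (mean FPKM 1 or above in the post-dauer libraries) were tested with limma 3.58.1 (trend, R 4.3.3) on log2(FPKM + 1), which understates changes of low genes. All 8 libraries were fitted with 1 mean per group (4 residual degrees of freedom, prior 2.76), and p-values were adjusted by Benjamini-Hochberg over all genes and called under 0.05. SE is that of the fitted difference. EdgeR 4.0.16 (quasi-likelihood, TMM, filterByExpr) and DESeq2 1.42.0 ran on recovered reads as alternatives. The scripts were tested on simulated data. Whether counting used strand is not given in the sources used here, so reads of genes overlapping on opposite strands may be mixed. Of 92 named genes, 4 share at least 10% of their exon bases with another gene in the Ensembl annotation.

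The members and all 47 gene lists (1379 symbols) were chosen with earlier results of these data known. Named genes were the 8 largest rises and the 8 largest falls (called, with a gene name, groups not overlapping, mean of at least 5 FPKM, at most 2 per name family), the best-ranked 2 members by adjusted p of the 10 lists with most members called for their size, and 11 genes set by name. Genes outside the rule were added after their values were seen: those for which the text says so, and further members of lists. No fold is given against a group listed at 0. Coordinates are those of the files. A planned description of promoter motifs was not run, and no sequence was analysed here.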

Additional observations from a re-analysis of the deposited data

Results flagged for a closer look

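For the genes listed here the genotype difference in post-dauers and that in dauers were not the same: the limma interaction passed an adjusted p of 0.05. The values in brackets are the post-dauer difference minus the dauer difference on the log2(FPKM + 1) scale, positive where aak(0) was relatively higher after dauer. Histone genes above 0 were his-24 (3.95), hil-7 (3.08), hil-3 (4.08) and hil-2 (0.73). Embryonic genes and genes of like pattern were vet-6 (2.57), pes-2.1 (2.47), pes-2.2 (3.62), pes-10 (1.79), sdz-28 (2.43), tbx-37 (1.55), hch-1 (2.94), ceh-43 (3.29), hlh-14 (2.16), skr-8 (2.95), skr-9 (3.31), skr-10 (1.88), nspc-10 (1.95), fbxb-54 (2.07) and C54C8.12 (6.56). Cuticle, neuropeptide and lectin genes were dpy-14 (3.25), dpy-17 (3.47), nlp-39 (4.62) and clec-266 (3.52). Immune genes were ilys-3 (3.24), tir-1 (1.83) and abf-2 (2.704).

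Among mitochondrial, muscle, signalling and other genes, values above 0 were found for nduo-2 (2.51), nduo-6 (2.43), ndfl-4 (2.41), tnc-2 (2.199), far-6 (1.89), dod-3 (1.03), daf-7 (3.36), ins-7 (1.35), pqm-1 (1.28), aakb-1 (1.19) and sls-2.5 (4.58). Values below 0 were found for the yolk genes vit-1 (-2.86), vit-3 (-2.85), vit-4 (-2.50), vit-5 (-2.28), vit-6 (-2.96) and rme-2 (-4.70), the uterine genes ule-3 (-3.28) and ule-4 (-3.43), the dauer and stress genes scl-11 (-2.05), scl-12 (-3.29), scl-13 (-2.82), sod-5 (-3.63), djr-1.2 (-3.52), cdr-3 (-4.07), cnc-5 (-5.96), spp-11 (-2.80), hsp-60 (-1.63) and hsp-110 (-1.28), and also for far-2 (-1.42), pod-2 (-1.62), msp-64 (-1.79) and aak-1 (-1.86). For aak-1, aakb-1, vit-6, rme-2, ule-3, ule-4 and pod-2 the post-dauer difference itself did not pass. Both far-2 and msp-64 were called higher in aak(0) post-dauers, and their dauer differences were larger still (2.40 and 2.89). In dauers the means of rme-2, ule-3 and ule-4 were 65.2, 22.4 and 21.2 FPKM in aak(0) and 2.98, 0.135 and 0.315 FPKM in hzl-1. Recovered reads were few for sls-2.5 and cnc-5, and for pes-2.1 and pes-2.2 they did not match the FPKM.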

How the results depend on the processing

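The 789 higher and 78 lower calls are compared here as higher and lower. A mean of at least 5 FPKM gave 497 and 49, the 4 post-dauer libraries alone 257 and 24, edgeR without filterByExpr 1262 and 643. Lower calls alone moved by over 1.5 times with TMM scaling of FPKM (133), median centring (187), edgeR TMM (134), edgeR RLE (146), DESeq2 (322) and, chosen after seeing the data, edgeR without rRNA genes (140). The replicate block gave 437 and 39, and 311 and 749 for the interaction in place of 535 and 1195. The labels give replicate numbers but no pairing, and the deviations of same-numbered post-dauer libraries correlated at -0.26. Interaction calls above and below 0 were 952 and 1074 with TMM scaling and 984 and 888 with median centring. They were 891 and 1328 with edgeR TMM, 999 and 1300 with edgeR RLE and 1048 and 1500 with DESeq2. Without rRNA genes they were 892 and 1451, and without filterByExpr 1271 and 2189. Leaving out 1 library gave 103 to 1220 higher, 20 to 1244 lower, and interaction calls of 90 to 782 above and 299 to 3406 below 0.

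Among named genes no called gene changed direction. Uncalled aakg-1 reached -0.026 under median centring, and leave-one-out ranges crossed 0 for C44H9.4 (-0.35 to 1.18), daf-2 (-0.85 to 0.37) and daf-16 (-0.21 to 0.076). For all of these the cause was not tested. The filter of at least 10 reads in both libraries of a post-dauer group, also chosen after seeing the data, gave 843 and 81. With 2 libraries a group and 1 of them apart from its replicate, sizes of differences are uncertain. Leaving out 1 library could not test the direction of called genes, because their post-dauer groups did not overlap. On recovered reads the difference was reversed for 2 of the 867 calls in edgeR TMM and in edgeR RLE. It was reversed for 4 in DESeq2 and in edgeR without filterByExpr.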
